A study of Homo sapiens with 80 samples.

Results

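The nuclear genes of oxidative phosphorylation were taken as the symbols that name structural subunits of the 5 complexes (NDUFA, NDUFB, NDUFC, NDUFS and NDUFV; SDHA to SDHD; UQCR; COX; ATP5) with a mean of at least 20 counts over the 80 libraries. All 74 symbols of this kind passed and were followed, out of 60663 genes in the table. The lowest mean belonged to NDUFA7, with 69.5 counts, and no symbol of the list lay below the limit. They comprised 36 genes of complex I, 4 of complex II, 8 of complex III, 11 of complex IV (with NDUFA4) and 15 of complex V. They were chosen by their symbol and selected on the mean raw count, a measured value that is used here for no comparison. RNA came from Jurkat T cells, which derive from a human T cell leukaemia. Groups at 9 g had 6 libraries each and are named by the duration of centrifugation, from the shortest, hypg20s at 20 s and hypg75s at 75 s, to those counted in minutes, hypg3, hypg5, hypg7, hypg9, hypg15 and hypg60 (3, 5, 7, 9, 15 and 60 min). The 1 g controls were kept for 15 min (Ctrl, for all groups up to hypg15) or 60 min (Ctrl60, for hypg60). In a separate experiment with 4 libraries per group, cells were spun at 300 g for 5 min and lysed 1 min (wait1min), 4 min (wait4min) or 15 min (wait15min) after the stop, or heated in a water bath of 42 °C (heat), and the control (CtrlA) was neither spun nor heated. No label names a genetic change. The library names of Ctrl60, unlike its titles, add HEPES, a buffer, and no other library name does, so that HEPES and exposure to 9 g cannot be told apart in hypg60 against Ctrl60.

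Oxidative phosphorylation couples the transfer of electrons along the inner mitochondrial membrane to the synthesis of ATP. Complex I takes electrons from NADH and complex II from succinate, complex III passes them to cytochrome c, complex IV reduces oxygen, and complex V uses the proton gradient to make ATP. Apart from complex II, each complex joins subunits from nuclear genes with subunits from the mitochondrial genome, so that both sets of transcripts are needed for assembly, and proliferating T cells raise the capacity of this pathway during activation.

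Counts were raw read pairs per gene from libraries depleted of ribosomal RNA, with 17205655 to 41893490 pairs per library. Library 75 of hypg15 held 24 members at 0, on chromosomes 3 to 9 and X, while no other library held a member at 0. It was left out throughout, so that hypg15 had 5 libraries. The counts of calls with it included, and the named member that then changed sign, are given further on. Of 31 values of named members, 14 kept direction and lost the call when it was included. The library numbers ran from 69 to 80 in hypg3 and hypg15 and from 1 to 48 in all remaining 9 g groups and 1 g controls, so a set of libraries prepared apart cannot be told apart from these 2 exposure times. All 9 T lymphocyte markers were present, with a summed level of 3079 to 3137 TPM (a level per transcript length, scaled to 1000000 per library) in Ctrl and 3342 to 3439 TPM in CtrlA, and 8 markers of other cell types summed to 1.49 to 2.17 TPM in Ctrl and 1.89 to 2.18 TPM in CtrlA, with MS4A1, HBB and EPCAM at a median of 0. The latter sum was higher in all 12 libraries spun at 300 g, at 2.34 to 3.80 TPM, and in hypg60, at 1.87 to 2.96 TPM against 1.54 to 1.85 TPM in Ctrl60. The sum of the T lymphocyte markers was lower in hypg15, at 2265 to 2997 TPM, than in Ctrl, and in wait1min, at 3200 to 3255 TPM, than in CtrlA. The part of these shifts in the results was not tested. In such bulk samples fewer cells and less RNA per cell cannot be told apart. The heat label was checked against 4 heat shock genes. Of these, HSPA1B rose by 0.63 and DNAJB1 by 0.17 on the log2 scale in heat, HSPH1 fell by 0.32, and HSPA1A, with a change of 0.44, did not pass the test.

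Levels per length differed widely among the members. In Ctrl the median TPM was 25.9 for complex I, 39.4 for complex II, 93.6 for complex III, 147 for complex IV and 86.3 for complex V. ATP5F1B, the catalytic β subunit of complex V, had the highest level, with 1119 ± 23.0 TPM (SD, n = 6), followed by COX8A, a small subunit of complex IV, with 543 ± 10.7 TPM. The lowest level was that of NDUFA5, an accessory subunit of the peripheral arm of complex I, with 1.52 ± 0.386 TPM. Exons shared with another annotated gene make some members uncertain, because pairs that hit 2 genes were not counted. Such bases were found in 25 members, and made up 35.4% of the exon bases of COX8A, 33.8% of NDUFB8, 32.5% of NDUFA7, 28.4% of NDUFV2, 21.6% of SDHA and 21.0% of NDUFA13. Copies of SDHA held 143% and the copy of NDUFV2 36.0% of the counts of the member itself. Isoforms of other tissues were almost absent, and of 7 such genes only NDUFA4L2 was abundant enough to be tested.

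Nuclear respiratory genes are known to carry sites for NRF1, for ETS factors such as GABPA, and for YY1 near their start. The windows from 250 bases before to 50 bases after the start were found for 61 of the 74 members in RefSeq on GRCh38.p14. The NRF1 palindrome, which the first capitals in SDHD spell, stood in 4 of them (6.56%, against 1.24% of all 35116 promoter windows), the ETS sequence CCGGAAG in 19 (31.1% against 10.3%) and the YY1 sequence AAGATGGCG in 8 (13.1% against 1.75%), each searched on both strands, and the matches in the windows printed here do not overlap. A match is a description of the letters and not a proven site. Windows of 4 members whose values are described further on are given from 5′ to 3′, with the matched motif in capitals. SDHD (chr11:112086623-112086922, + strand) holds the NRF1 sequence and, as its reverse complement, the ETS sequence. SDHB (chr1:17053983-17054282, - strand) holds the ETS and the YY1 sequence, UQCRC1 (chr3:48609597-48609896, - strand) the YY1 sequence and NDUFB7 (chr19:14572017-14572316, - strand) the ETS sequence.
SDHD: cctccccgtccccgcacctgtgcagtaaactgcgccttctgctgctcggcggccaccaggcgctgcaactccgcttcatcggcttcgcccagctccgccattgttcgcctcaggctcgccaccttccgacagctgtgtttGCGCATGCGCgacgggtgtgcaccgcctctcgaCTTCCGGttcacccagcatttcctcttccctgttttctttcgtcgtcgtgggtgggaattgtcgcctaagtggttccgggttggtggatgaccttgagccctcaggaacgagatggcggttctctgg
SDHB: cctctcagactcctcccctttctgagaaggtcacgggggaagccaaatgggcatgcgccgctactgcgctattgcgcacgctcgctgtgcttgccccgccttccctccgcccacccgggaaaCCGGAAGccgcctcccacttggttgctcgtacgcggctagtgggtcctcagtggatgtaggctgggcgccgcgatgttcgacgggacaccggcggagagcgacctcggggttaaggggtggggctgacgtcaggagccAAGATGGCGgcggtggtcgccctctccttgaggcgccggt
UQCRC1: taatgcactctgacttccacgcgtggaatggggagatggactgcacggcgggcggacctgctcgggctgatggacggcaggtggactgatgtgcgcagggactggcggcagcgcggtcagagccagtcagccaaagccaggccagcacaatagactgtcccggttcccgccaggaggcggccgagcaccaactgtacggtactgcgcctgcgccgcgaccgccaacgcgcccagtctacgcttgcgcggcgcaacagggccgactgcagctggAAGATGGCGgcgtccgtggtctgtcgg
NDUFB7: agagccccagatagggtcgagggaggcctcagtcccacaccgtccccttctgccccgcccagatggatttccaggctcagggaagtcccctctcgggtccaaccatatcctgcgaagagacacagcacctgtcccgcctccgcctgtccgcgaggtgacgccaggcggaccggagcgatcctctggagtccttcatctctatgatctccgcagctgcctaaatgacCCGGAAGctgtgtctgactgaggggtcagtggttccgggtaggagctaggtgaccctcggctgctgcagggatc

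The first question was whether exposure to 9 g changed the members against their own 1 g control. At every duration more members fell than rose, and the falls were small. The median log2 fold change over the 74 members was -0.00 in hypg20s, -0.10 in hypg75s, -0.18 in hypg3, -0.11 in hypg5, -0.16 in hypg7, -0.16 in hypg9, -0.18 in hypg15 and -0.21 in hypg60. The median over all genes tested lay between -0.02 and 0.02 in these comparisons. Below 0 were 37 estimates in hypg20s, 64 in hypg75s, 60 in hypg3, 69 in hypg5, 68 in hypg7, 68 in hypg9, 54 in hypg15 and 69 in hypg60. A change was called at an adjusted p under 0.05 in edgeR's quasi-likelihood test. The 7 comparisons up to 15 min share the Ctrl libraries and are therefore not independent of each other.

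In hypg20s, 9 members (12.2%) fell and 0 rose, against 8.58% lower and 6.66% higher among all genes tested. In hypg75s 30 fell (40.5%) and 2 rose, beside 14.4% lower and 16.8% higher genes. In hypg3 44 members fell (59.5%) and 4 rose, compared with 24.4% and 16.9% of all genes. In hypg5 4 members fell (5.41%) and 0 rose, at a background of 1.69% and 4.33%. Thereafter 32 members fell in hypg7 (43.2%, background 6.19%) and 0 rose (6.64%), and 40 fell in hypg9 (54.1%, background 8.34%) and 2 rose (11.3%). In hypg15 36 members fell (48.6%) and 7 rose (background 27.9% and 25.4%). In hypg60 39 members fell (52.7%) and 2 rose, where 13.0% of all genes were lower and 17.1% higher than Ctrl60. An unadjusted p under 0.05 was reached by 18 members in hypg20s, 29 in hypg5 and 50 in hypg7, and DESeq2 called 0, 0 and 1 of them higher, respectively. No share of all genes at an unadjusted p is given, here or further on.

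The number of calls varied with the processing. A correction for GC content lowered the number of falling members in hypg3 from 44 to 25 and in hypg20s from 9 to 4, and raised it in hypg5 from 4 to 21. With this correction 35 fell in hypg75s, 40 in hypg7, 56 in hypg9, 34 in hypg15 and 50 in hypg60, so that the order of the durations by their number of calls depended on it. The shares of all genes given here belong to the uncorrected edgeR test, so that counts under any other setting have no background. Without library 29 of hypg5, which stood farthest from its group, 9 members fell there. With library 75 included, 17 instead of 36 members fell in hypg15 and 5 rose, and without library 77 of hypg15 11 instead of 7 members rose. A correction for exon length gave 13 rising and 35 falling members in hypg15. Without library 44 of hypg60 4 members rose. Between both controls, Ctrl60 against Ctrl, edgeR called 0 members in either direction (0.00621% of all genes each), 1 member reached an unadjusted p under 0.05, and DESeq2 called 0.

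**Figure D1:**
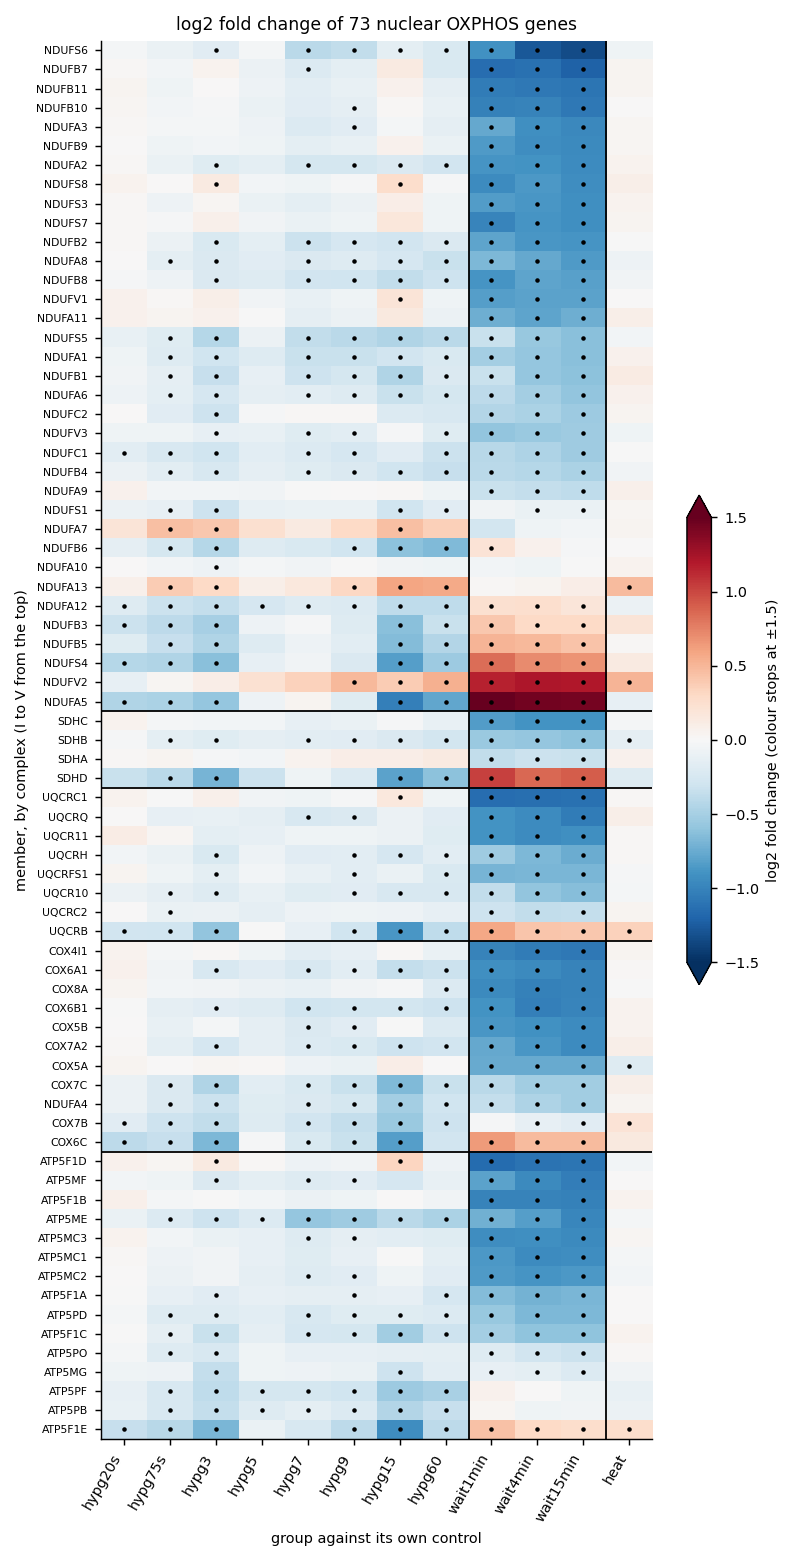
log2 fold change of 73 of the 74 members (vertical axis, ordered by complex I to V and within a complex by wait15min) in 12 groups against their own control (horizontal axis), with the colour scale limited at ±1.5. Dots mark members with an adjusted p under 0.05. The 9 g groups are mostly pale blue, the 300 g groups dark blue with 10 or 11 members called higher (red) in each, and heat is nearly white.

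From hypg75s on, the medians of all 5 complexes lay below 0 at 9 g, and in hypg20s those of complexes I, III and IV lay slightly above 0 in the fits. Per library, the median log2 difference of the members of a complex from the mean of the control was computed and then averaged over the libraries. For complex IV it was -0.14 ± 0.09 (SD, n = 6) in hypg75s, -0.20 ± 0.13 in hypg3, -0.22 ± 0.04 in hypg9, -0.30 ± 0.17 (n = 5) in hypg15 and -0.27 ± 0.07 in hypg60. For complex I the corresponding values were -0.11 ± 0.06, -0.12 ± 0.06, -0.16 ± 0.02, -0.10 ± 0.09 and -0.20 ± 0.09. The libraries of hypg9 lay closest together, and in that group every library lay below every Ctrl library for complexes I, III, IV and V. Complex V reached -0.20 ± 0.09 in hypg3 and -0.22 ± 0.11 in hypg60, complex III -0.12 ± 0.08 and -0.19 ± 0.10, and complex II, with 4 genes only, -0.09 ± 0.08 and -0.17 ± 0.07. The difference between complexes was not tested.

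Within complexes the calls were distributed unevenly. The 7 core subunits of complex I that the nucleus encodes carry the NADH site and the iron-sulphur clusters. In hypg3 1 of them rose and 1 fell, with a median of 0.07, whereas 20 of the 29 supernumerary subunits fell and 2 rose, with a median of -0.21 (24.4% lower and 16.9% higher among all genes tested). In hypg15 3 core subunits rose and 1 fell, beside 2 and 16 of the supernumerary ones (background 25.4% higher and 27.9% lower). Corrected for GC content, 1 core subunit rose and 1 fell in hypg3 and 1 and 0 in hypg15, with medians of -0.05 and -0.04, and 0 supernumerary subunits rose and 13 fell in hypg3 and 2 and 18 in hypg15. NDUFS1, the core subunit with the iron-sulphur clusters that lead away from the NADH site, was the core subunit that fell in both, and it lost both calls with that correction, at -0.03 and 0.02. Of complex V, all 7 subunits of the peripheral stalk and membrane part fell in hypg3 with a median of -0.31 (3 of them, ATP5ME, ATP5MF and ATP5PF, with the GC correction), 3 of 5 subunits of the catalytic F1 part fell and 1 rose (0 and 0 with the correction), and none of the 3 genes of the c-ring passed the test (edgeR). In hypg9 2 of these 3 c-ring genes fell, ATP5MC2 and ATP5MC3 (background 8.34% lower). With the GC correction ATP5MC3 lost this call, and ATP5MC1 and ATP5MC2 were called lower.

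**Figure D2:**
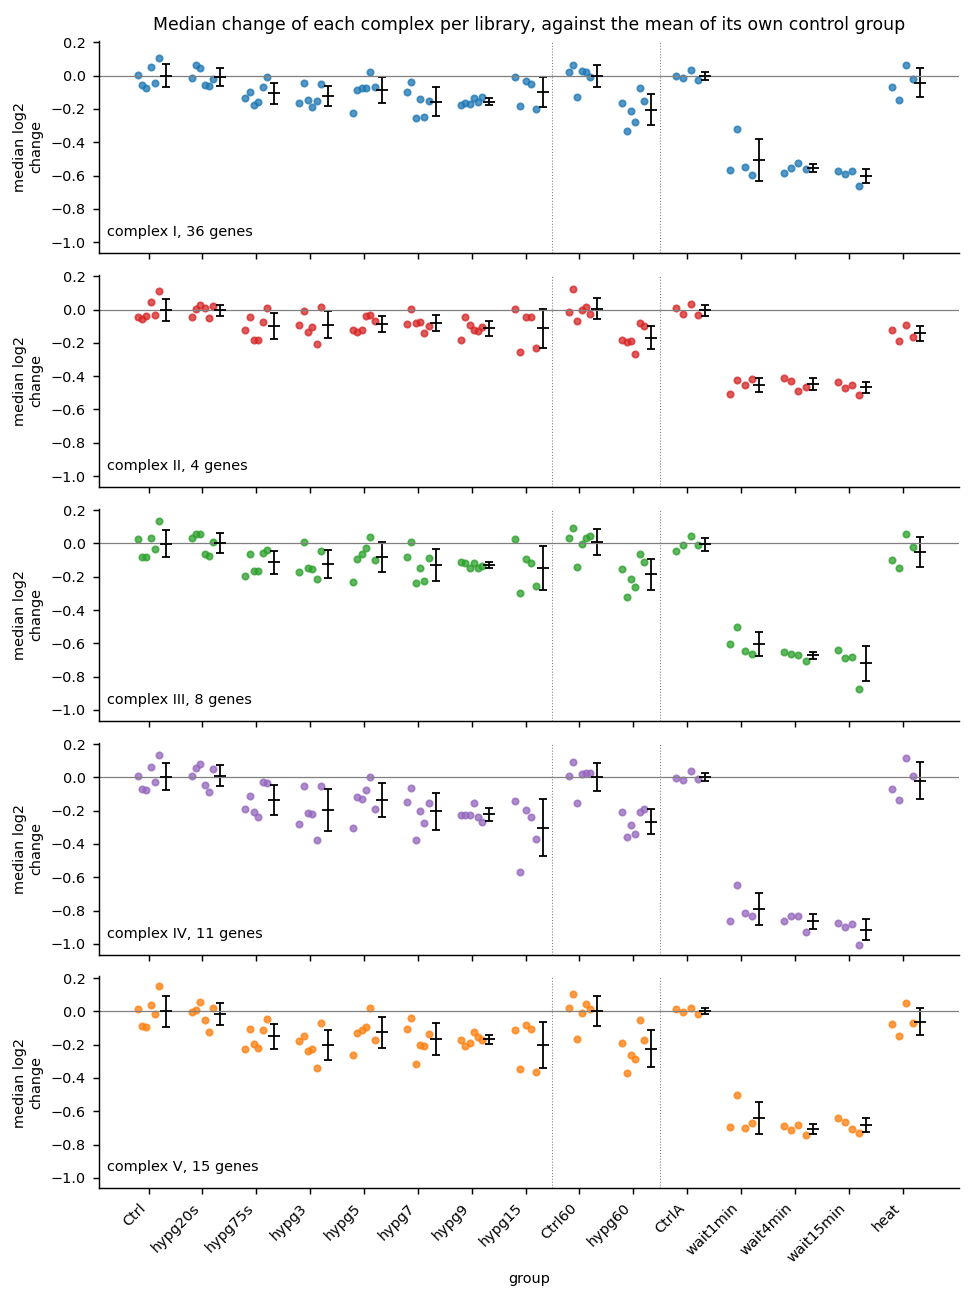
Median log2 difference of the members of each complex from the mean of the own control group (vertical axis), per library (points) and group (horizontal axis), with the mean and SD as bars beside them. Panels run from complex I to V, and dotted lines separate the groups measured against Ctrl, Ctrl60 and CtrlA. Values after 300 g lie below all other groups in every panel, down to -0.92 ± 0.06 for complex IV in wait15min.

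A drop in at least 6 of the 8 comparisons at 9 g was called for 20 members (27.0%) and a rise in 6 or more for 0, against 3.68% and 4.90% of the 15638 genes tested in all 8. They were NDUFA1, NDUFA6, NDUFA8, NDUFA12, NDUFB1, NDUFB4, NDUFC1 and NDUFS5 of complex I, SDHB of complex II, UQCRB of complex III, COX6C, COX7B, COX7C and NDUFA4 of complex IV, and ATP5F1C, ATP5F1E, ATP5ME, ATP5PB, ATP5PD and ATP5PF of complex V. The comparisons share controls, so that this count is not a repeated observation. With the GC correction 7 of the 20 were still called lower in 6 or more comparisons, namely NDUFA1, NDUFA8, NDUFC1, NDUFS5, COX6C, ATP5ME and ATP5PF, whereas NDUFA4 was called in 0, COX7B, COX7C and ATP5F1C in 1 and NDUFB4, UQCRB and ATP5F1E in 2. Over all members 21 reached that number with the correction, so that the number of members changed little and their identity did. Most of these genes encode small supernumerary subunits, while ATP5F1C and ATP5F1E encode the central stalk, ATP5PB, ATP5PD and ATP5PF the peripheral stalk, and SDHB the iron-sulphur protein of succinate dehydrogenase. In all, 53 members fell in at least 1 comparison, 7 rose in at least 1, and 14 were not called at any duration (edgeR). The share of all genes called in at least 1 comparison is not given, so that these counts have no background.

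NDUFA12, an accessory subunit added late in the assembly of complex I, was the member that fell at all 8 durations. After the GC correction it kept 5 of these calls and lost those in hypg20s, hypg3 and hypg15, and NDUFC1 and ATP5ME were then the 2 members called lower at all 8. Its lowest, median and highest level was 38.6, 39.8 and 43.9 CPM (counts per 1000000 after normalisation) in Ctrl, 32.8, 35.2 and 38.7 in hypg20s, 30.0, 31.9 and 34.7 in hypg75s and 34.1, 34.4 and 37.4 in hypg9. The ranges of Ctrl and hypg20s touched at their ends, and those of hypg75s and hypg9 lay wholly below Ctrl. The log2 fold change ran from -0.19 ± 0.05 (SE) in hypg7, with an adjusted p of 0.021, to -0.39 ± 0.08 in hypg60, with an adjusted p of 0.0032. ATP5ME, subunit e in the membrane part of complex V, had 45.5, 48.2 and 51.6 CPM in Ctrl, 27.7, 29.7 and 41.7 CPM in hypg7 and 29.0, 33.9 and 37.3 CPM in hypg9. All libraries of hypg7 and hypg9 lay below all Ctrl libraries. Its log2 fold change was -0.58 ± 0.09 in hypg7 (adjusted p = 0.0015), -0.53 ± 0.06 in hypg9 (6.6e-05) and -0.47 ± 0.06 in hypg60 (3.8e-05), and it kept its sign with the GC correction, at -0.62, -0.61 and -0.60. NDUFS5, an accessory subunit of complex I, had 81.0, 88.9 and 94.0 CPM in Ctrl against 63.8, 65.8 and 68.2 CPM in hypg9, without overlap, a change of -0.41. SDHB had 71.0, 73.6 and 80.9 CPM in Ctrl and 64.4, 65.5 and 67.4 CPM in hypg9, also without overlap, at -0.17 ± 0.04 (adjusted p = 0.0044).

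The largest falls in hypg3 and hypg15 belonged to other members. SDHD, a membrane anchor of succinate dehydrogenase, had 15.1, 17.3 and 19.9 CPM in Ctrl, 8.89, 10.2 and 14.3 CPM in hypg3 and 7.62, 9.40 and 12.8 CPM in hypg15, so that no library of either group reached the control range. It changed by -0.69 ± 0.11 in hypg3 (adjusted p = 0.00023) and -0.80 ± 0.11 in hypg15 (5.6e-05). NDUFA5 was the only member to fall by more than 2-fold at 9 g. Its level was 8.33, 9.35 and 13.7 CPM in Ctrl and 3.08, 5.26 and 6.53 CPM in hypg15, apart from each other, with a log2 fold change of -1.03 ± 0.17 (adjusted p = 0.00016). In hypg60 it had 4.84, 5.52 and 10.9 CPM against 9.04, 10.2 and 14.0 CPM in Ctrl60, with overlapping ranges, at -0.78 ± 0.19 (0.0066). ATP5F1E, the ε subunit of the F1 part, changed by -0.69 in hypg3 and -0.93 in hypg15, UQCRB, the ubiquinone-binding protein of complex III, by -0.59 and -0.87, and COX6C, a small subunit of complex IV, by -0.68 and -0.82. The GC correction reduced these values, to -0.41 for NDUFA5, -0.38 for ATP5F1E, -0.30 for UQCRB and -0.55 for COX6C in hypg15, and hardly that of SDHD, at -0.72. In hypg3 it ended the calls of NDUFA5 (-0.15), ATP5F1E (-0.27) and UQCRB (-0.16), and COX6C kept its call at -0.43. In hypg60 NDUFB6, of the membrane arm of complex I, fell by 0.66 ± 0.08 (adjusted p = 4.7e-05), from 26.0, 27.6 and 31.0 CPM in Ctrl60 to 15.6, 17.2 and 20.6 CPM without overlap.

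In at least 1 comparison at 9 g, 7 members rose. NDUFA13, also known as GRIM-19, an accessory subunit of complex I, rose by 0.38 in hypg75s, 0.30 in hypg3, 0.31 in hypg9, 0.60 ± 0.12 in hypg15 (adjusted p = 0.00085) and 0.57 ± 0.12 in hypg60 (0.0021). It had 3.61, 3.91 and 4.55 CPM in Ctrl, 5.16, 5.30 and 8.04 CPM in hypg15, 3.69, 4.16 and 4.57 CPM in Ctrl60 and 4.80, 5.93 and 7.89 CPM in hypg60, with no overlap in either pair. The GC correction ended its calls in hypg75s and hypg3 and left it at 0.32 in hypg15 and 0.41 in hypg60. NDUFV2, an iron-sulphur subunit near the NADH site, rose by 0.49 in hypg9, 0.38 in hypg15 and 0.53 in hypg60. NDUFA7, an accessory subunit of the peripheral arm, rose by 0.45 in hypg75s, 0.41 in hypg3 and 0.45 in hypg15 from a median of only 1.78 CPM in Ctrl, and lost all 3 calls with the GC correction. These 3 members share exons with neighbouring genes. The remaining rises were small and were seen in hypg3 or hypg15 only, such as NDUFS8, an iron-sulphur subunit of complex I (0.14 and 0.27), ATP5F1D, the δ subunit of the F1 part (0.13 and 0.32), and UQCRC1, a core protein of complex III (0.16 in hypg15). With the GC correction NDUFS8 was at -0.04 and 0.01, ATP5F1D at -0.11 and -0.04 and UQCRC1 at -0.06, none of them called, and with library 75 included UQCRC1 was at -0.10.

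**Figure D3:**
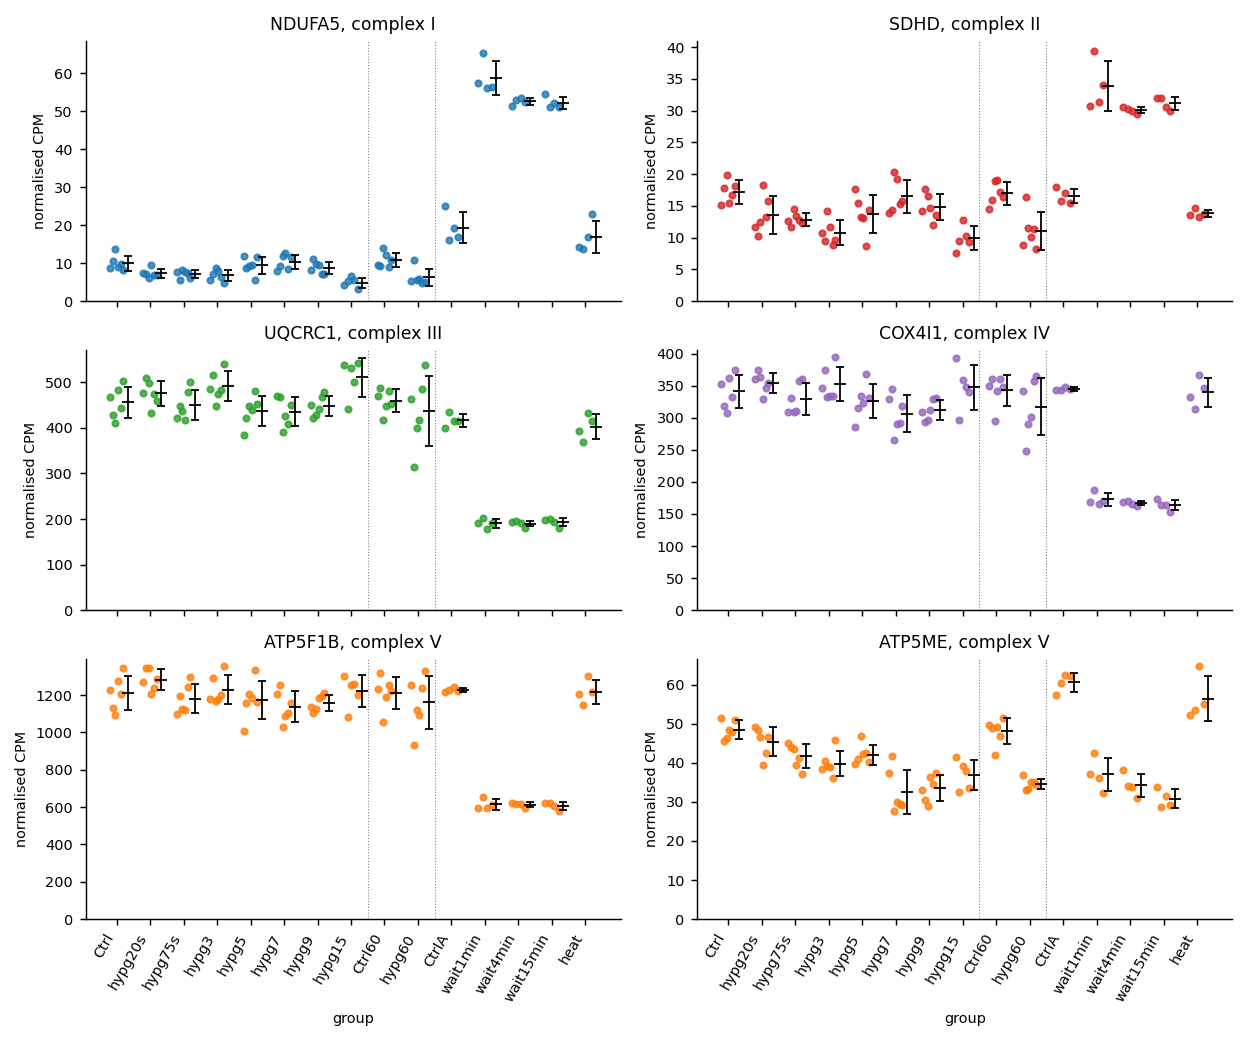
Normalised counts per 1000000 (vertical axis, from 0) of 6 members in every library (points), by group (horizontal axis), with the mean and SD as bars. NDUFA5 and SDHD are higher after 300 g than in CtrlA, UQCRC1, COX4I1 and ATP5F1B lie far below CtrlA in all 12 libraries, and ATP5ME is low in hypg7, hypg9 and hypg60.

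Differences between exposure times were tested directly within a range of library numbers. From hypg75s to hypg9, 5 members fell (6.76%, against 3.24% of all genes) and 1 rose (1.35% against 1.76%). The falling members were ATP5ME (-0.33 ± 0.07, adjusted p = 0.011), NDUFS6 (-0.27), NDUFS5 (-0.22), NDUFB8 (-0.22) and NDUFA2 (-0.16), the last 4 being supernumerary subunits of complex I, and NDUFV2 rose by 0.46 ± 0.10 (0.019). From hypg3 to hypg15 edgeR called 0 members in either direction (1.70% of all genes higher and 0.842% lower), 8 members reached an unadjusted p under 0.05, and DESeq2 called 0. Without library 73 of hypg3 1 member fell, and with all groups in 1 model 4 fell.

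The second question was how centrifugation at 300 g for 5 min, as used to collect cells, changed the members. The majority fell, and the change was several times that at 9 g. In CtrlA the members took between 0.807% and 0.817% of all counts in a library, with a median of 0.810%, and in wait1min between 0.595% and 0.650%, with a median of 0.597%. In wait4min the share was 0.587% to 0.598% and in wait15min 0.573% to 0.601%, so that all 12 spun libraries lay below all controls. In wait1min 56 members fell (75.7%) and 11 rose (14.9%), against 40.1% lower and 41.4% higher among all genes tested. In wait4min 58 fell and 10 rose (background 40.6% and 41.7%), and in wait15min likewise 58 (78.4%) fell and 10 (13.5%) rose (background 40.5% and 41.8%). A fall of more than 2-fold was seen for 7 (9.46%), 10 (13.5%) and 11 (14.9%) members, beside 4.64%, 4.06% and 4.86% of all genes, and a rise of more than 2-fold for 3, 2 and 2, beside 23.2%, 22.4% and 22.8%. All 3 comparisons share the CtrlA libraries.

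The median log2 fold change of the members was -0.58 in wait1min, -0.65 in wait4min and -0.65 in wait15min, at a median of 0.01 over all genes. Scaling by total counts moved the median of all genes to 0.25, 0.27 and 0.27 and that of the members to -0.34, -0.39 and -0.39. This scaling shifts all genes alike, so that the distance between both medians, at -0.59, -0.66 and -0.66, cannot change with it. The GC correction gave -0.47, -0.56 and -0.58 relative to all genes and the length correction -0.54, -0.60 and -0.61. The split of the calls was less stable than the median. With the GC correction 67, 69 and 69 members fell and 3, 3 and 4 rose, and with total counts 49, 53 and 53 fell and 17, 18 and 16 rose. No shares of all genes are given for these settings.

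After 300 g complex IV had the lowest values and complex II those nearest to 0. Per library, the median difference from CtrlA in wait15min was -0.60 ± 0.04 (SD, n = 4) for complex I, -0.47 ± 0.03 for complex II, -0.72 ± 0.10 for complex III, -0.92 ± 0.06 for complex IV and -0.68 ± 0.04 for complex V, while the CtrlA libraries stayed between -0.05 and 0.05. In wait1min the values were -0.51 ± 0.13, -0.45 ± 0.04, -0.61 ± 0.07, -0.79 ± 0.10 and -0.64 ± 0.09. In every complex and at every waiting time all spun libraries lay below all controls. In wait15min 26 members of complex I, 3 of complex II, 7 of complex III, 10 of complex IV and 12 of complex V fell, and 6, 1, 1, 1 and 1 rose. Among all genes tested 40.5% were lower and 41.8% higher in wait15min. Of the 7 core subunits of complex I 6 fell, with a median of -0.81, and of the 29 supernumerary ones 20 fell, with a median of -0.59. The 3 genes of the c-ring all fell, with a median of -0.93, and 5 of 7 subunits of the stalk and membrane part, with a median of -0.33. With the GC correction 6 core subunits fell, with a median of -0.46, and 26 supernumerary ones, with a median of -0.66. All 3 c-ring genes and all 7 stalk and membrane subunits then fell, with medians of -0.78 and -0.65. The order of the core and supernumerary medians thus depended on that correction.

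Of the members named for catalytic or defining sites, UQCRC1, ATP5F1B and COX4I1 fell by more than 2-fold at every waiting time. The others named for such sites did not reach a 2-fold fall at any waiting time. Whether members with such sites fell more than the remaining members was not tested. UQCRC1, a core protein of complex III, had 400.4, 414.6, 415.8 and 435.4 CPM in CtrlA and 178.7, 190.5, 190.7 and 201.4 CPM in wait1min, far below the control range. Its log2 fold change was -1.14 ± 0.04 (SE, adjusted p = 1e-13) in wait1min and -1.11 ± 0.04 in wait15min. ATP5F1B had 1215, 1222, 1226 and 1242 CPM in CtrlA and 593.9, 597.1, 613.9 and 656.5 CPM in wait1min, a change of -1.0 ± 0.04 (2e-13) that stayed at -1.02 in wait15min. COX4I1, a nuclear subunit of complex IV with a regulatory role, had 343.5, 343.5, 344.8 and 348.6 CPM in CtrlA and 153.4, 164.5, 164.6 and 173.1 CPM in wait15min, at -1.08 ± 0.03 (adjusted p = 1.9e-15). Groups did not overlap for any of these genes. NDUFB7, an accessory subunit of complex I on the intermembrane side, changed by -1.14 in wait1min and -1.21 in wait15min, and ATP5F1D by -1.16 and -1.10. NDUFS7, next to the ubiquinone site, was at -0.99 and -0.92, NDUFV1, which binds NADH, at -0.83 and -0.81, UQCRFS1, the Rieske protein, at -0.69 at both, ATP5F1A, the α subunit, at -0.66 and -0.69, and ATP5MC3 at -0.93 and -0.95. The catalytic pair of complex II changed less, with SDHA at -0.37 and -0.34 and SDHB at -0.55 and -0.61, and COX5A, a subunit of complex IV on the matrix side, was at -0.75 at both times. NDUFS1 stood apart at -0.05, which did not pass the test, and -0.10, which did. Scaled by total counts, it was called higher in wait15min, at 0.16.

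These members kept their sign when corrected for GC content and changed in size in both directions. In wait1min the falls became smaller for UQCRC1 (-0.69), COX4I1 (-0.77), ATP5F1B (-0.91), NDUFB7 (-0.63), NDUFS7 (-0.49) and NDUFV1 (-0.36), and larger for UQCRFS1 (-1.15), ATP5F1A (-0.93), ATP5MC3 (-1.74), SDHB (-0.77) and NDUFS1 (-0.84). NDUFS6, a zinc-binding accessory subunit of complex I, had the lowest fold change of all members in wait15min. It had 86.9, 87.4, 87.8 and 89.3 CPM in CtrlA, 44.3, 46.8, 47.9 and 49.1 CPM in wait1min, 33.3, 36.8, 37.3 and 38.2 CPM in wait4min and 33.1, 33.2, 35.1 and 37.5 CPM in wait15min. The 4 libraries of wait1min thus lay between the controls and those of the later groups, with no overlap. Its log2 fold change was -0.91 ± 0.04 in wait1min, -1.28 ± 0.04 in wait4min and -1.34 ± 0.04 in wait15min. It was also the member that differed between the first and the last waiting time when these were compared directly, by -0.43 ± 0.05 (edgeR, adjusted p = 0.00016), where 1 member fell (1.35%, against 0.138% of all genes) and 0 rose (0.0115%). Without libraries 54 or 56 of wait1min, 2 or 3 members fell in this comparison, DESeq2 called 5 lower and 0 higher, and 23 members reached an unadjusted p under 0.05. With no filter on low counts 15 members fell, and with all groups in 1 model 6 fell.

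The members that rose after 300 g in wait15min were NDUFA5, NDUFV2, NDUFS4, NDUFB5, NDUFB3 and NDUFA12 of complex I, SDHD, UQCRB, COX6C and ATP5F1E. NDUFA5 had 16.1, 16.8, 19.2 and 25.1 CPM in CtrlA, 56.1, 56.4, 57.4 and 65.4 CPM in wait1min and 51.1, 51.2, 52.3 and 54.5 CPM in wait15min, without overlap. Its log2 fold change was 1.60 ± 0.10 (SE, adjusted p = 5e-11) and 1.43 ± 0.09. SDHD had 15.4, 15.8, 17.1 and 17.9 CPM in CtrlA, 30.8, 31.4, 34.1 and 39.4 CPM in wait1min and 30.0, 30.6, 31.9 and 32.1 CPM in wait15min, again apart, with 1.03 ± 0.08 and 0.91 ± 0.05. NDUFV2 had 4.08, 4.12, 4.42 and 5.46 CPM in CtrlA and 9.07, 9.71, 10.7 and 11.0 CPM in wait1min, with 1.15 ± 0.10. NDUFS4, an accessory subunit of the peripheral arm of complex I, was at 0.84 in wait1min and 0.67 in wait15min. The transcripts of the 10 rising members had a median GC content of 43.3% (36.0% to 47.3%), and those of the 58 falling members 50.4% (40.0% to 67.6%).

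Change and GC content moved together across the members, as they did across all genes. Spearman's rho over the 74 members was -0.69 in wait1min, -0.66 in wait4min and -0.65 in wait15min, and over all genes -0.70, -0.68 and -0.67. At 9 g it had the opposite sign, with 0.62 in hypg20s, 0.65 in hypg75s, 0.73 in hypg3, 0.71 in hypg15 and 0.52 in hypg60, and it was weaker in hypg9 (0.35), hypg5 (0.25) and hypg7 (0.02). In heat it was -0.08. These are relations across genes measured in the same libraries, and genes are not independent replicates. With the GC correction NDUFA5 in wait1min went from 1.60 to -0.23, UQCRB from 0.59 to -1.05, ATP5F1E from 0.44 to -1.13, COX6C from 0.64 to -0.02, NDUFA12 from 0.24 to -0.46, NDUFB5 from 0.51 to -0.97 and NDUFB3 from 0.40 to -0.14. In wait15min 7 of the 10 rising members, these same ones, were called lower with the correction, and NDUFS4, at -0.09, lost its call and its sign. SDHD and NDUFV2 stayed higher, at 0.86 and 0.77 in wait1min. The direction of 8 of the 10 members that rose in wait15min therefore depended on that correction. The length correction also turned NDUFA12 and UQCRB, to -0.32 and -0.21. What the part of GC content in the changes was, in the cells or in the libraries, was not tested.

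**Figure D4:**
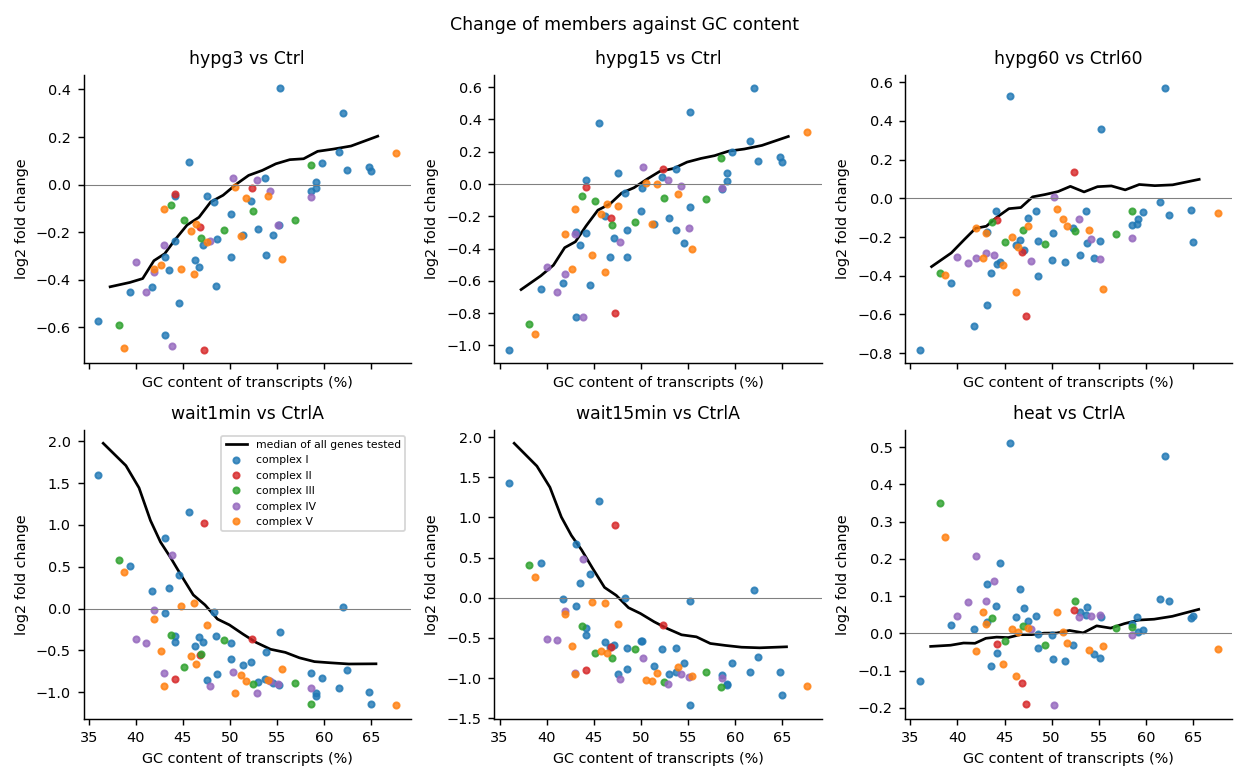
log2 fold change of the 74 members (points, coloured by complex; vertical axis, scaled per panel) against the GC content of their transcripts in % (horizontal axis) in 6 comparisons, with the median of all genes tested in bins of GC content as a black line. The line rises at 9 g and falls after 300 g, and most members lie below it in hypg60 and at the 2 waiting times shown, while they scatter around 0 in heat.

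The 9 g and the 300 g experiments do not share control libraries, so that the values of the same members can be set side by side. Of the 10 members that rose in wait15min, 7 fell in hypg20s, 9 in hypg75s, 9 in hypg3, 1 in hypg5, 2 in hypg7, 4 in hypg9, 9 in hypg15 and 8 in hypg60, where the share of lower genes ran from 1.69% (hypg5) to 27.9% (hypg15) of all genes tested. After the GC correction 2, 6, 3, 1, 2, 6, 7 and 6 of the 10 fell at these durations. NDUFV2 was the exception, since it rose in hypg9, hypg15 and hypg60. Their median log2 fold change was -0.33 in hypg20s, -0.58 in hypg3, -0.07 in hypg7 and -0.81 in hypg15. Of the 58 members that fell in wait15min, 2 fell in hypg20s, 18 in hypg75s, 31 in hypg3, 1 in hypg5, 28 in hypg7, 33 in hypg9, 24 in hypg15 and 28 in hypg60, with a median of 0.01 in hypg20s, -0.16 in hypg3, -0.17 in hypg7 and -0.13 in hypg15. After the GC correction 2, 27, 21, 19, 35, 47, 25 and 40 of the 58 fell at these durations. Across the 74 members, Pearson's r between the changes in wait1min and those at 9 g was -0.82 in hypg20s, -0.56 in hypg75s, -0.63 in hypg3, 0.02 in hypg5, 0.36 in hypg7, 0.02 in hypg9, -0.60 in hypg15 and -0.29 in hypg60. With the GC correction in both it was -0.73, -0.30, -0.34, -0.11, 0.30, 0.22, -0.20 and -0.03. The points are genes of shared libraries, and no p is given for them.

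**Figure D5:**
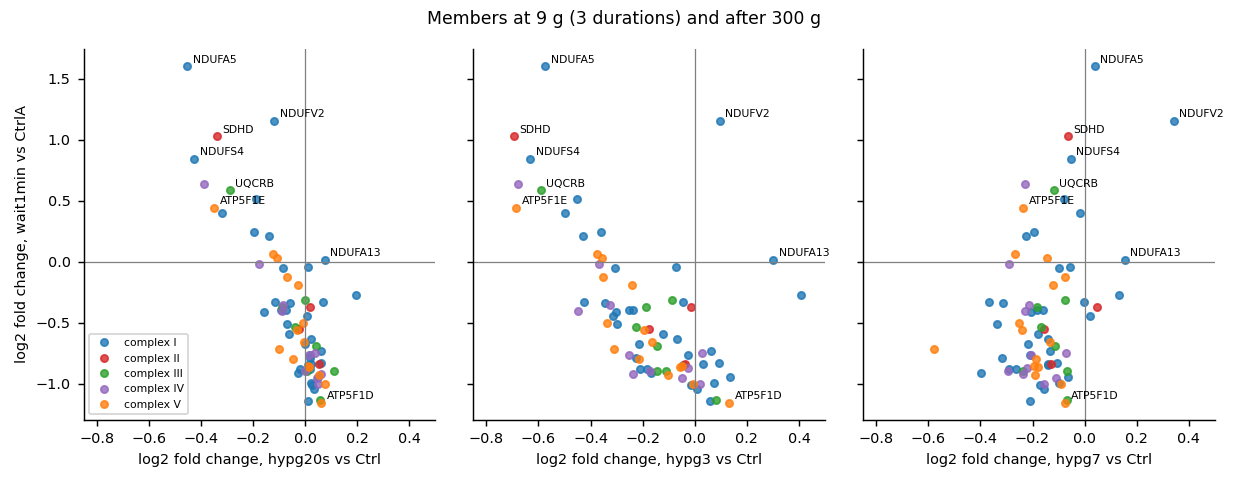
log2 fold change of each member in wait1min against CtrlA (vertical axis) and in hypg20s, hypg3 or hypg7 against Ctrl (horizontal axes), coloured by complex. In hypg20s and hypg3 the members that rose after 300 g lie to the left, except NDUFV2 in hypg3, with r = -0.82 and -0.63 over all members. In hypg7 most members lie to the left of 0 at any height.

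Heat served as the comparison without centrifugation, and few members changed. In heat 5 members rose (6.76%, against 10.6% of all genes tested) and 2 fell (2.7%, against 10.2%), and 0 passed a 2-fold change in either direction (2.28% and 0.0420%). The median log2 fold change of the members was 0.02. NDUFV2 had 4.08, 4.12, 4.42 and 5.46 CPM in CtrlA and 5.46, 6.05, 6.27 and 6.73 CPM in heat, with ranges that met, and rose by 0.51 ± 0.11 (SE, adjusted p = 0.0030). NDUFA13 had 4.76, 4.87, 5.08 and 5.77 CPM in CtrlA and 6.30, 6.66, 7.01 and 7.12 CPM in heat, without overlap, and rose by 0.47 ± 0.09 (0.0013). UQCRB rose by 0.35, ATP5F1E by 0.26 and COX7B, a small subunit of complex IV, by 0.21. COX5A fell by 0.19 ± 0.04 (0.0025) from 163.8, 164.7, 172.7 and 174.7 CPM to 132.7, 135.0, 141.2 and 155.2 CPM, and SDHB by 0.13 ± 0.03 (0.0091) from 82.0, 85.4, 85.4 and 86.0 CPM to 72.3, 73.0, 73.6 and 75.9 CPM, both without overlap. UQCRB, ATP5F1E and COX7B had fallen at 9 g in 6, 6 and 7 of the 8 durations, respectively, and with the GC correction in 2, 2 and 1.

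The number of calls in heat was sensitive to scaling. Without library 50 of CtrlA or library 68 of heat, 2 members rose. With total counts 8 rose, and with all groups of the experiment in 1 model 4 rose and 11 fell. The GC correction gave 5 rising and 9 falling members and the length correction 4 and 24. Scaled over all 20 libraries of the experiment, the median of complex I in heat was -0.04 ± 0.09 (SD, n = 4) and that of complex II -0.14 ± 0.04, with complex I at 0.04 and complex II at -0.08 in the fit of heat and CtrlA alone, so that no direction is given for the complexes in heat.

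Other genes of the pathway and of gene expression in mitochondria were followed as lists. The 13 subunits encoded by the mitochondrial genome went the other way at 9 g. Of them 5 rose in hypg20s, 11 in each of hypg75s, hypg3, hypg5 and hypg7, 10 in hypg9, 13 in hypg15 and 12 in hypg60, and 0 fell, against 4.33% (hypg5) to 25.4% (hypg15) higher among all genes tested. Their medians were 0.14, 0.36, 0.42, 0.48, 0.40, 0.28, 0.71 and 0.94. After 300 g 5 rose and 3 fell in wait1min (background 41.4% and 40.1%) and 3 rose and 9 fell in wait15min (41.8% and 40.5%), and in heat 9 rose and 1 fell (10.6% and 10.2%). All mitochondrial transcripts took 1.16% to 1.38% of the counts in Ctrl60 and 2.12% to 2.67% in hypg60, and their part in the values of the members was not tested. Of the nuclear subunits that the symbols did not cover, CYC1, the cytochrome of complex III, fell by 1.06 in wait1min, and CYCS, cytochrome c, rose by 1.20 in wait1min and fell by 0.76 in hypg60. In all, 5 of these 7 genes fell in hypg3 and hypg60, and 6 fell and 1 rose in wait15min, where 24.4%, 13.0% and 40.5% of all genes were lower and 41.8% higher in wait15min.

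Among 50 assembly factors of the complexes, 24 fell and 1 rose in hypg3, 13 and 1 in hypg60, 26 and 18 in wait15min, and 1 and 2 in heat. In shares, 48.0% and 2.00% in hypg3 stand beside 24.4% lower and 16.9% higher among all genes tested, and 52.0% and 36.0% in wait15min beside 40.5% and 41.8%. In hypg60 26.0% and 2.00% stand beside 13.0% and 17.1%, and in heat 2.00% and 4.00% beside 10.2% and 10.6%. Of 10 regulators of nuclear respiratory genes that could be tested, 6 fell and 3 rose in hypg3, beside 24.4% lower and 16.9% higher among all genes tested. In wait15min 4 fell and 5 rose, where the background is close to these shares. TFAM, which packs and transcribes mitochondrial DNA, changed by -0.71 in hypg3, -1.06 in hypg15, 2.08 in wait1min and 1.95 in wait15min, and GABPA by -0.54, -0.76, 2.38 and 2.22. NRF1 fell by 0.50 and ESRRA by 0.43 in wait1min. PPARGC1A had a median of 0 TPM and was not tested.

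Ribosomal protein genes, a similar set of short and abundant nuclear transcripts, are set beside the members for scale. Of 77 mitochondrial ribosomal proteins, 40 fell in hypg3, 42 in hypg9, 40 in hypg60 and 56 in wait15min, and 1, 2, 1 and 17 rose, with medians of -0.13, -0.16, -0.21 and -0.63. Of 83 cytosolic ribosomal proteins, 49, 56, 49 and 75 fell and 1, 1, 1 and 5 rose, with medians of -0.16, -0.19, -0.22 and -0.83. Among all genes tested 24.4%, 8.34%, 13.0% and 40.5% were lower and 16.9%, 11.3%, 17.1% and 41.8% higher. The members had medians of -0.18, -0.16, -0.21 and -0.65 in the same comparisons. No difference between the lists was tested.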

How the data were processed

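The authors prepared RNA-Seq libraries with depletion of ribosomal RNA and sequenced them as read pairs. The authors deposited 1 table of raw counts per gene, without normalization, made with Trim Galore 0.6.5, STAR 2.7.3a and featureCounts on GRCh38 and Ensembl 104. The labels give featureCounts 2.0.1 and the file header 2.0.3, with strand-specific counting of pairs, and pairs on several genes or places were by default not counted. Column names differ from the titles for Ctrl60 (Ctrl plus HEPES), wait1min (instant) and wait4min (1min), and the titles were followed. The record of 1 gene, broken over 3 lines, was left out.

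Each comparison was fitted with its 2 groups only, with edgeR 4.0.16 (R 4.3.3) by its quasi-likelihood F test, after TMM scaling and filterByExpr at a minimum count of 10, and Benjamini-Hochberg adjustment over all genes tested. All 74 members were tested in all 16 comparisons. The SE was derived from the F statistic. Levels in CPM were scaled by TMM factors over all libraries of an experiment, and complex medians used log2(CPM + 0.5). TPM used the exon length in bases, which the authors' program wrote into the table. GC content was the length-weighted mean over GENCODE 29 transcripts and was found for all 74 members. Alternatives were no filter, RLE or total-count scaling, DESeq2 1.42.0, all groups in 1 model, offsets by GC content or exon length (lowess, span 0.3, prior count 2), library 75 included and single libraries left out. On simulated data for hypg3 against Ctrl with 16194 genes, 70.9% of changes of 0.5 and 98.9% of changes of 1 (log2) were recovered, and for wait1min against CtrlA with 17155 genes 68.6% and 97.8%. The simulated counts had the same dispersion in all genes, few changed genes and no trend with GC content. They therefore do not give the share of changes found in the real comparisons. Replicates were compared by the chi-square of their counts in 175 pairs within groups, and all pairs differed by more than counting noise (1.46 to 159 per degree of freedom). The sources used here do not say whether replicates came from separate cultures, so p-values measure the spread between these libraries. Counting error is a part of this spread and was not given apart.

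The members and lists were chosen with earlier results of these data known, and no p-value was computed for a list. Named are subunits with catalytic or defining sites, the 3 largest rises and falls among called members in hypg3, hypg15, hypg60, wait1min, wait15min and heat, members called in 1 direction in at least 6 of 8 comparisons at 9 g, and members called in opposite directions at heat. Further members were named where they complete a list of 10 or fewer calls. The values of 1 member are counted in the summaries and are not reported here by name. Python 3.11.15, pandas 2.3.3, numpy 2.4.6, limma 3.58.1 and matplotlib 3.10.9 were also used. Spliced and unspliced transcripts are not analysed here.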

Additional observations from a re-analysis of the deposited data

Results flagged for a closer look

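In 6 of 75 combinations of complex and group, the median of 1 library lay far from the others of its group, where chance gives about 1 in 20. Library 54 of wait1min was nearer to the control than the rest of its group, with a median log2 difference from CtrlA of -0.32 for complex I, against -0.60 to -0.55 in the other 3 libraries, and of -0.50 for complex V, against -0.70 to -0.67. It still lay below all control libraries in both. Library 64 of wait15min was lower than its group for complex I, at -0.66 against -0.59 to -0.58. Library 9 of Ctrl60 was low, at -0.13 for complex I and -0.15 for complex IV, where the other 5 libraries lay between -0.01 and 0.06 and between 0.01 and 0.09. Library 40 of hypg9 was at -0.15 for complex IV, with the others from -0.27 to -0.23.

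Between exposure times, 7 tests of a member passed the threshold for the difference itself in edgeR (Benjamini-Hochberg adjusted over all genes). From hypg75s to hypg9 the log2 difference was -0.33 for ATP5ME (adjusted p = 0.011), -0.27 for NDUFS6 (0.033), -0.22 for NDUFS5 (0.0022), -0.22 for NDUFB8 (0.038), -0.16 for NDUFA2 (0.021) and 0.46 for NDUFV2 (0.019). From wait1min to wait15min NDUFS6 fell by 0.43 (0.00016), and the 4 libraries of each group did not overlap.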

How the results depend on the processing

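No paired analysis was possible because the labels give each library its own number and no number is shared between groups. Of 418 alternative values of counts and complex medians, 347 stayed within the limits set and 71 did not; of 3412 for named members, 3177 kept direction and call, 194 kept direction and lost the call, and 41 turned. Leaving out libraries 44, 9 and 29 was chosen after seeing the data. The cause of these shifts was not tested.

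With the GC correction, the members called lower were 4 in hypg20s, 25 in hypg3, 21 in hypg5, 9 in heat and 8 from hypg75s to hypg9, and those called higher 0 in hypg75s, 1 in hypg3, 1 in hypg7, 4 in hypg15, and 3, 3 and 4 in wait1min, wait4min and wait15min. With the length correction 13 rose in hypg15 and 6 in wait15min and 24 fell in heat. With all groups in 1 model 4 fell in hypg20s, 11 in heat, 3 from hypg75s to hypg9, 4 from hypg3 to hypg15 and 6 from wait1min to wait15min, and 2 rose in hypg3, 1 in hypg7, 1 in hypg9 and 4 in hypg60. With no filter 1 rose in hypg3, and 2 fell in hypg5, 3 from hypg75s to hypg9 and 15 from wait1min to wait15min. DESeq2 called 12 lower in hypg5, 1 higher in hypg7, 2 higher from hypg75s to hypg9 and 5 lower from wait1min to wait15min. With total counts 12 fell in hypg5 and 3 from wait1min to wait15min, and 4 rose in hypg60, 17, 18 and 16 in wait1min, wait4min and wait15min, and 8 in heat. With library 75 included 17 fell in hypg15. The RLE scaling changed no count beyond the limit of 1.5 times.

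Leaving out single libraries gave 5 to 11 rising (11 without library 77) and 32 to 39 falling members in hypg15, 10 to 11 and 55 to 57 in wait1min, 10 and 56 to 59 in wait4min, 10 and 58 in wait15min, 2 to 7 (2 without library 50 or 68) and 2 to 3 in heat, and 3 to 4 (4 without library 44) and 38 to 42 in hypg60. In hypg5 9 fell without library 29. From hypg3 to hypg15 0 to 1 fell (1 without library 73), and from wait1min to wait15min 1 to 3 (2 without library 54, 3 without library 56).

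The complex medians per library, scaled over all libraries of an experiment, were also computed with total counts. This moved them nearer to 0 after 300 g, with no change of sign, and away from 0 in hypg15. In heat it turned those of complexes I, III, IV and V from below to above 0. In the fit of heat and CtrlA alone, the medians of these complexes were above 0 already. With total counts the medians per library in hypg9 were -0.12 for complex I, -0.089 for III, -0.18 for IV and -0.13 for V. In wait1min, wait4min and wait15min they were -0.27, -0.31 and -0.35 for complex I, -0.22, -0.20 and -0.21 for II, -0.37, -0.42 and -0.46 for III, -0.55, -0.61 and -0.66 for IV, and -0.41, -0.45 and -0.43 for V. In heat they were 0.055 for complex I, -0.045 for II, 0.046 for III and 0.036 for V.

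Among the members named by the rule, signs turned as follows. The GC correction gave, in wait1min, wait4min and wait15min, -0.23, -0.31 and -0.34 for NDUFA5, -0.46, -0.42 and -0.49 for NDUFA12, -1.05, -1.14 and -1.17 for UQCRB, -0.019, -0.15 and -0.15 for COX6C and -1.13, -1.20 and -1.24 for ATP5F1E, and -0.86 for NDUFB6 in wait1min. Outside the rule, it also turned NDUFB5 at all 3 waiting times (-0.97, -0.93 and -0.99) and NDUFB3 (-0.14, -0.21 and -0.22), and NDUFS4 in wait4min and wait15min (-0.047 and -0.085). At 9 g it gave 0.0082 for ATP5F1C, 0.014 for NDUFA4 and 0.0047 for NDUFS1 in hypg75s, 0.012 for COX7B and 0.032 for UQCRB in hypg20s, -0.11 for ATP5F1D, 0.057 for NDUFA4, -0.043 for NDUFS8 and 0.044 for UQCRFS1 in hypg3, and -0.038 for ATP5F1D, 0.025 for NDUFS1, -0.041 for NDUFV1 and -0.065 for UQCRC1 in hypg15. The length correction gave -0.32, -0.31 and -0.38 for NDUFA12 and -0.21, -0.37 and -0.39 for UQCRB in wait1min, wait4min and wait15min, and -0.025 for ATP5F1E in wait15min. Total counts gave 0.14 and 0.094 for COX7B and 0.16 and 0.16 for NDUFS1 in wait4min and wait15min. NDUFS1 was then called higher at both times and COX7B in wait4min. Library 75 included gave -0.10 for UQCRC1 in hypg15. Depth limits mainly NDUFA7, NDUFA13 and NDUFV2, whose levels in Ctrl lay below 5 CPM.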

Other observations

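MT-ND6, chosen after its values were seen, is the 1 protein-coding gene on the light strand of the mitochondrial genome and encodes a membrane subunit of complex I. Its log2 fold change was 0.58 in hypg20s, 1.16 in hypg75s, 0.86 in hypg3, 1.29 in hypg5, 0.76 in hypg7, 0.79 in hypg9, 1.01 in hypg15, 1.65 in hypg60, 1.28 in wait1min and wait4min, 1.20 in wait15min and 0.55 in heat, and each passed the threshold in edgeR. In wait15min the other 12 mitochondrially encoded subunits lay between -0.34 (MT-ATP8) and 0.18 (MT-ND4L). In hypg60 they lay between 0.03 (MT-ND3) and 1.08 (MT-ND5). The members of complex I from the nucleus had a median of -0.22 in hypg60 and -0.62 in wait15min.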
